A study of Mus musculus with 11 samples.

Results

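The genes described here encode chaperones and folding enzymes of the endoplasmic reticulum (ER), the stress sensors of that compartment and the genes those sensors control. They were chosen by name: a list of 34 genes was matched to the gene symbols of the array platform, and 75 of the 22690 probe sets carried one of these symbols. A probe set is a group of short oligonucleotides for one transcript, and its signal is a brightness with no absolute unit. Of the 34 genes, 13 had 1 probe set and 21 had several. All 34 passed the limit on dim probe sets and were among the 7924 genes tested, each by its brightest probe set. Asns passed with a mean below that limit in 1 group, the wild-type mice on the normal diet.

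Liver RNA of 11 male mice of a mixed genetic background was measured, with 1 array per mouse, to compare diets and genotypes. Akt1 double transgenic mice were fed the high-fat diet (4 arrays). Wild-type mice were fed the high-fat diet (4 arrays) or the normal diet (3 arrays). All groups, controls included, received doxycycline, the drug that switches inducible transgenes, for 3 weeks. Muscle hypertrophy is marked in the transgenic mice and not in the other groups. In the published inducible Akt1 model the kinase, which acts in insulin and growth factor signalling, is made in skeletal muscle. The labels used here do not name the promoter, and they give no ages. There was no transgenic group on the normal diet, so genotype was compared on the high-fat diet alone.

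Secreted and membrane proteins enter the ER through the Sec61 channel and fold there with the help of chaperones, and hepatocytes, which make most plasma proteins, carry a heavy load of such work. When unfolded proteins build up, 3 sensors respond. Ern1 (IRE1) splices the mRNA of the transcription factor Xbp1, and Atf6 is cut in the Golgi to release a transcription factor, and both arms raise chaperones and degradation genes. Eif2ak3 (PERK) slows translation and favours production of the transcription factor Atf4, whose targets include Ddit3 (CHOP), Trib3, Asns and Ppp1r15a. The signal of a probe set measures mRNA level, so neither splicing of Xbp1 nor activation of a sensor was measured.

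The ER stress response element (ERSE) is the promoter element through which Atf6 and Xbp1 act with the factor NF-Y. It is spelled CCAAT and CCACG with 9 bases between them. Promoter sequences from 250 bases before to 50 bases after the start of transcription (RefSeq, GRCm38.p6) were at hand for 28 of the 34 genes. On either strand, ERSE was found in 7 of 13 chaperone promoters, in 1 of 4 degradation gene promoters (Syvn1) and in 0 of the 11 promoters of other roles, against 0.119% of all 32851 promoters. ERSE-II, spelled ATTGG and CCACG with 1 base between them, was found in Dnajb11 and Herpud1, against 0.0365% of all promoters. ATTGG reads CCAAT on the opposite strand, so both elements are built from the same pair of short motifs. The 6 windows below show where the chaperone arm and the Atf4 arm differ in sequence. The first 4 are ERSE promoters of chaperones, the fifth is the ERSE-II promoter of Herpud1, and the last is the Asns promoter. Capitals mark the element found, spacer included, with 30 bases on each side.
Hspa5 (chr2:34771995-34772073, plus strand): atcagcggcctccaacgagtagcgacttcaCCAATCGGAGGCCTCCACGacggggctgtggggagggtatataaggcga
Hsp90b1 (chr10:86705503-86705581, minus strand): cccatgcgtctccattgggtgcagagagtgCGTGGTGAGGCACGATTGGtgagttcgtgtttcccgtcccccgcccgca
Creld2 (chr15:88819490-88819568, plus strand): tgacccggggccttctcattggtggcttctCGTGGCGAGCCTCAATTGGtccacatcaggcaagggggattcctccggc
Pdia6 (chr12:17266461-17266539, plus strand): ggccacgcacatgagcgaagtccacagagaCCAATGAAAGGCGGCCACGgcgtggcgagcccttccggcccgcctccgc
Herpud1 (chr8:94386347-94386417, plus strand): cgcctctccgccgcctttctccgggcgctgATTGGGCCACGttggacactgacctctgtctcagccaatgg
Asns (chr6:7693195-7693262, minus strand): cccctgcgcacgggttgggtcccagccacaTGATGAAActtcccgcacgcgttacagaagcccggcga

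Each window is printed along the strand of its gene. In Hsp90b1 and Creld2 the element lies on the strand opposite to the gene, so it reads CGTGG first and ATTGG last. Hspa5, which encodes the chaperone BiP, has it 65 bases before the start of transcription, and Hsp90b1 has it at 107 bases and again at 212 bases before the start. The element shown for Asns is the C/EBP-ATF response element (CARE), the site of Atf4 in amino acid and stress genes, searched as TGATGNAA on both strands. CARE was found in Asns, Trib3 and Herpud1, and in 3.97% of all promoters. The Xbp1 element UPRE, TGACGTGG, was found in 0 of the 28 promoters and in 0.676% of all promoters, and it shares CCACG with ERSE. No matches of different elements overlapped in these 28 promoters. A match describes letters in a window and is not evidence of binding.

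**Figure D1:**
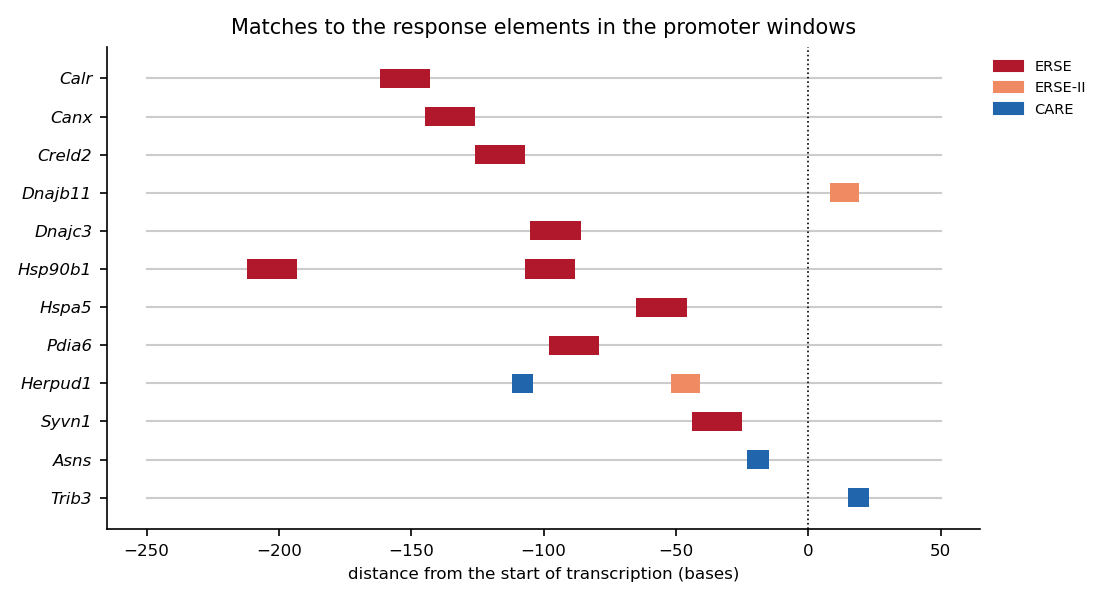
Position of each match, in bases from the start of transcription (dotted line), in the 12 promoters that held one. Bars are drawn to scale over windows of 250 bases before to 50 bases after the start, and all ERSE matches lie before the start, within 212 bases of it.

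Before the comparisons, the quality of the arrays was looked at. Spearman correlations between arrays ranged from 0.935 to 0.956. Transgenic array 3 had the lowest poly-A spike signal, 140 against 334 to 588 on the other 10 arrays, and the highest Gapdh 3'/5' ratio, 0.823 against 0.669 to 0.768. The brightest probe set read 42426 on transgenic array 3 and 43273 on transgenic array 4, against 27780 to 35450 on the other 9 arrays. Hepatocyte markers were present on all arrays (6 of 6 on the platform were past the dim limit), with a summed signal of 117458 to 161589 in transgenic mice, 114348 to 129708 in wild-type high-fat mice and 100254 to 119313 in normal-diet mice. Akt1 itself had signals of 434 to 585 in transgenic livers and 421 to 513 in wild-type high-fat livers at its brighter probe set, so the liver arrays do not set the genotypes apart by that gene.

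Transgenic and wild-type mice on the high-fat diet were compared first. In the transgenic livers, most ER chaperones and folding enzymes were brighter: 13 of 15 had a mean above that of wild-type mice, with a median log2 difference of 0.23, while the median of all 7924 genes was 0.0010 and 50.2% of them were above 0. None of the 15 was called by limma (lowest adjusted p = 0.120, Sdf2l1), although 7 had an unadjusted p under 0.05, all of them higher. Among all genes, 13.7% had such a p, 551 higher and 534 lower. In 5 of the 15 every transgenic array lay above every wild-type array, and 0 lay wholly below. Among all genes tested, 4.32% were higher without overlap and 4.09% were lower without overlap. Over the whole list of 34, 25 genes were above 0, and 7 were higher without overlap against 0 lower. One gene of the 34, Dnajc12, rose by limma's test, where 0.366% of all genes were called in either direction.

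Dnajc12 encodes a J-domain co-chaperone that, unlike the others here, works in the cytosol, where it assists aromatic amino acid hydroxylases such as that of phenylalanine. Its signal was 1308, 3677, 1422 and 2690.3 in transgenic livers, against 652, 858.5, 623 and 552 in wild-type high-fat livers and 554, 507 and 709.9 in normal-diet livers. The lowest transgenic array was above the highest of the other 7 arrays. Transgenic arrays 2 and 4 were well above arrays 1 and 3 of the same group. The log2 difference was 1.64 ± 0.29 (SE), a 3.13-fold higher level (n = 4 each, limma adjusted p = 0.0461). The call rests on the choice of arrays and of fit: it held in 2 of the 11 fits that left out 1 array and in 6 of 11 other alternatives, with log2 differences of 1.37 to 1.87 and limma adjusted p of 0.0221 to 0.222 over all of them.

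**Figure D2:**
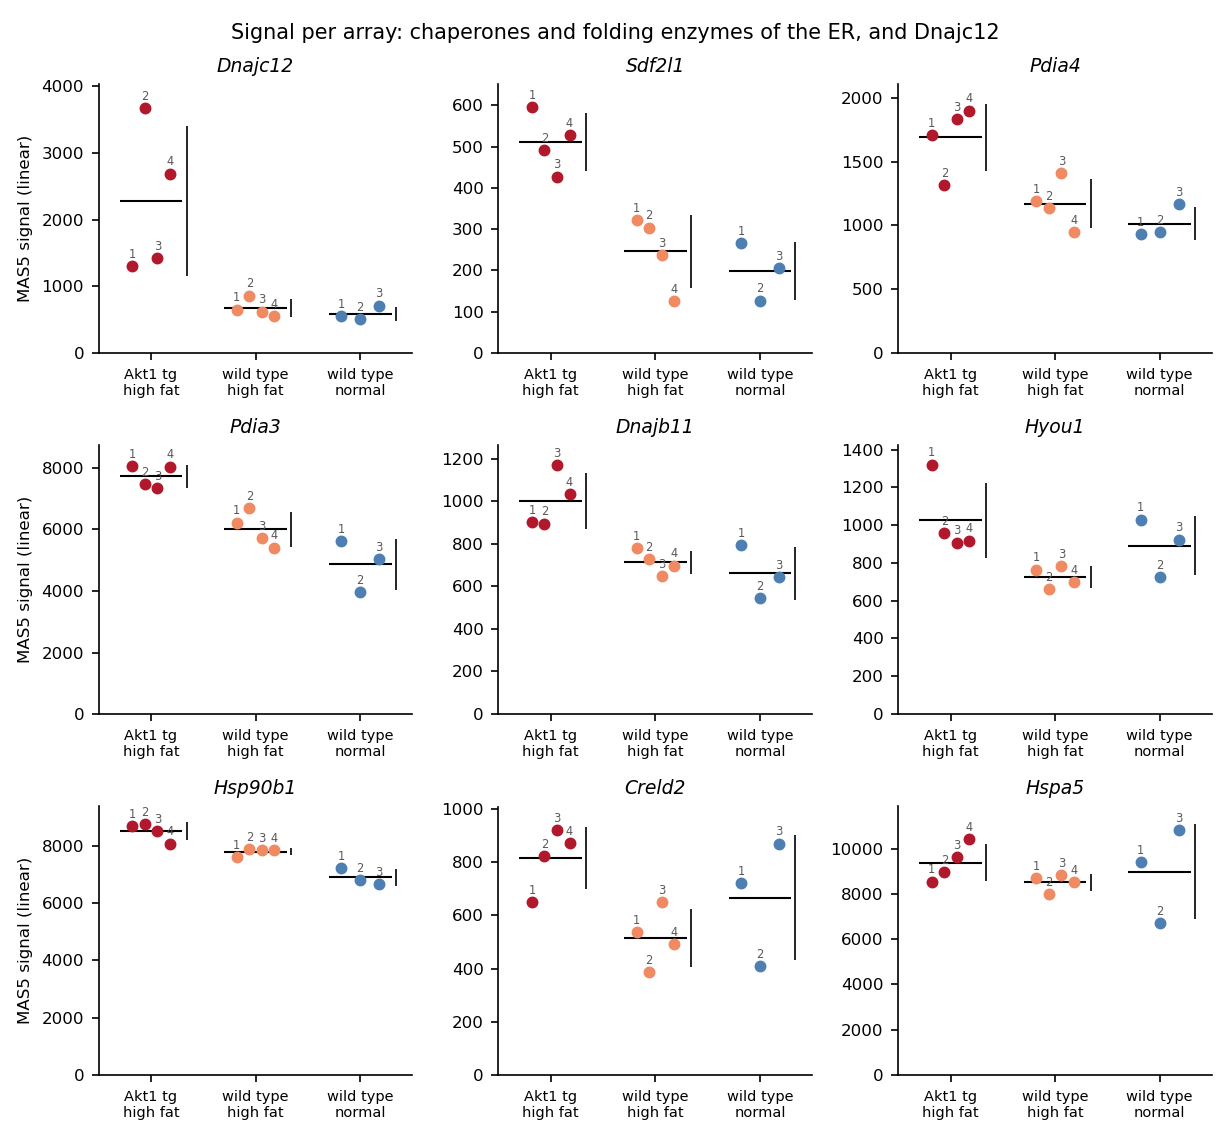
MAS5 signal (linear axes starting at 0) of 9 genes on each array, numbered by replicate, for Akt1 transgenic high-fat, wild-type high-fat and wild-type normal-diet livers; horizontal bars are means and vertical lines are 1 SD either side. In Dnajc12, Sdf2l1, Pdia3, Dnajb11, Hyou1 and Hsp90b1 the 4 transgenic points lie above all 4 wild-type high-fat points, whereas in Pdia4, Creld2 and Hspa5 the groups overlap.

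Among the ER chaperones, Sdf2l1 had the widest gap. It encodes a small ER protein that works with BiP and its J-domain partners to keep nascent proteins from aggregating. Its signal was 596, 491, 427 and 527 in transgenic livers, against 321, 304, 237 and 126 in wild-type high-fat livers. All 4 transgenic arrays were higher than all 4 wild-type arrays, and wild-type array 4 was the lowest by a wide margin. The log2 difference was 1.13 ± 0.29, a 2.18-fold higher level (limma adjusted p = 0.120). Without wild-type high-fat array 4 it was 0.83.

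Dnajb11 encodes another partner of BiP, the J-domain protein ERdj3. It had 901.5, 894, 1170.3 and 1035 in transgenic livers, against 779, 727, 648.5 and 697.5 in wild-type high-fat livers, and the groups did not overlap. The log2 difference was 0.48 ± 0.13 (limma adjusted p = 0.142). Hyou1, a large relative of the heat shock protein 70 family that serves BiP as a nucleotide exchange factor, had 1321, 957, 908 and 918 in transgenic livers, against 765, 660.0, 782 and 698 in wild-type high-fat livers. Here too the groups were apart, and transgenic array 1 stood above the other 3. The log2 difference was 0.48 ± 0.15 (limma adjusted p = 0.179). At the dimmer probe sets of Hyou1 the genotypes overlapped, with differences of 0.42 ± 0.18 and 0.89 ± 0.33.

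Hsp90b1 (GRP94), the heat shock protein 90 of the ER, had 8676, 8762, 8503 and 8073 in transgenic livers, against 7609, 7872, 7833 and 7839 in wild-type high-fat livers. The gap was small and without overlap, at a log2 difference of 0.13 ± 0.070 (limma adjusted p = 0.454). At the second probe set of this gene the signals were 6139, 5500.2, 8027 and 6934.5 in transgenic livers, against 4975, 4178, 5316.5 and 4666 in wild-type high-fat livers. That probe set gave a larger log2 difference, 0.47 ± 0.13, again without overlap (limma adjusted p = 0.184 over all probe sets with 1 symbol). Hspa5 itself, the BiP gene, lay between 8540.5 and 10417 in transgenic livers, against 7995 to 8840.2 in wild-type high-fat livers. The difference of 0.14 had a 95% interval of -0.15 to 0.42, so the data allow a change in either direction.

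The disulfide isomerases, which form and rearrange the disulfide bonds of secreted proteins, were represented by 4 genes. Pdia3, which works with calnexin and calreticulin on glycoproteins, had 8068, 7472, 7339 and 8040.1 in transgenic livers, against 6218, 6689.6, 5712 and 5405 in wild-type high-fat livers. All transgenic arrays were higher, and the log2 difference was 0.37 ± 0.11 (limma adjusted p = 0.184). Pdia4 had 1709, 1314, 1831 and 1899 in transgenic livers, against 1191.5, 1134, 1408 and 947.5 in wild-type high-fat livers. Here transgenic array 2 was below wild-type array 3, and the log2 difference was 0.53 ± 0.15 (limma adjusted p = 0.151). Pdia6 differed by 0.44 ± 0.17 and P4hb, which also forms part of the collagen hydroxylase, by 0.10 ± 0.12, and in both the groups overlapped.

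Creld2, an ER-stress-inducible protein with isomerase activity, had 649, 822, 920.2 and 873 in transgenic livers, against 538, 386, 650.2 and 492 in wild-type high-fat livers. The groups touched at transgenic array 1 and wild-type array 3, and the log2 difference was 0.67 ± 0.23 (limma adjusted p = 0.219). Manf, a small secreted protein held in the ER by BiP, differed by 0.23 ± 0.19. The lectin chaperones of glycoproteins had opposite signs at their brightest probe sets, with Calr (calreticulin) at 0.18 ± 0.11 and Canx (calnexin) at -0.091 ± 0.13. The dimmer probe sets of Canx were above 0, at 0.16 ± 0.11 and 0.21 ± 0.14. Those of Calr differed by 0.35 ± 0.12, without overlap, and by 0.055 ± 0.17, with overlap. Dnajc3, an inhibitor of eIF2 kinases that also serves BiP, differed by 0.16 ± 0.12. A dimmer probe set of Dnajc3 differed by 0.31 ± 0.13 without overlap, and its remaining ones by -0.027 to 0.17 with overlap. Dnajb9, the J-domain protein that holds IRE1 back, was the only other chaperone with a mean below that of wild-type mice, at -0.15 ± 0.11. None of these was called.

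**Figure D3:**
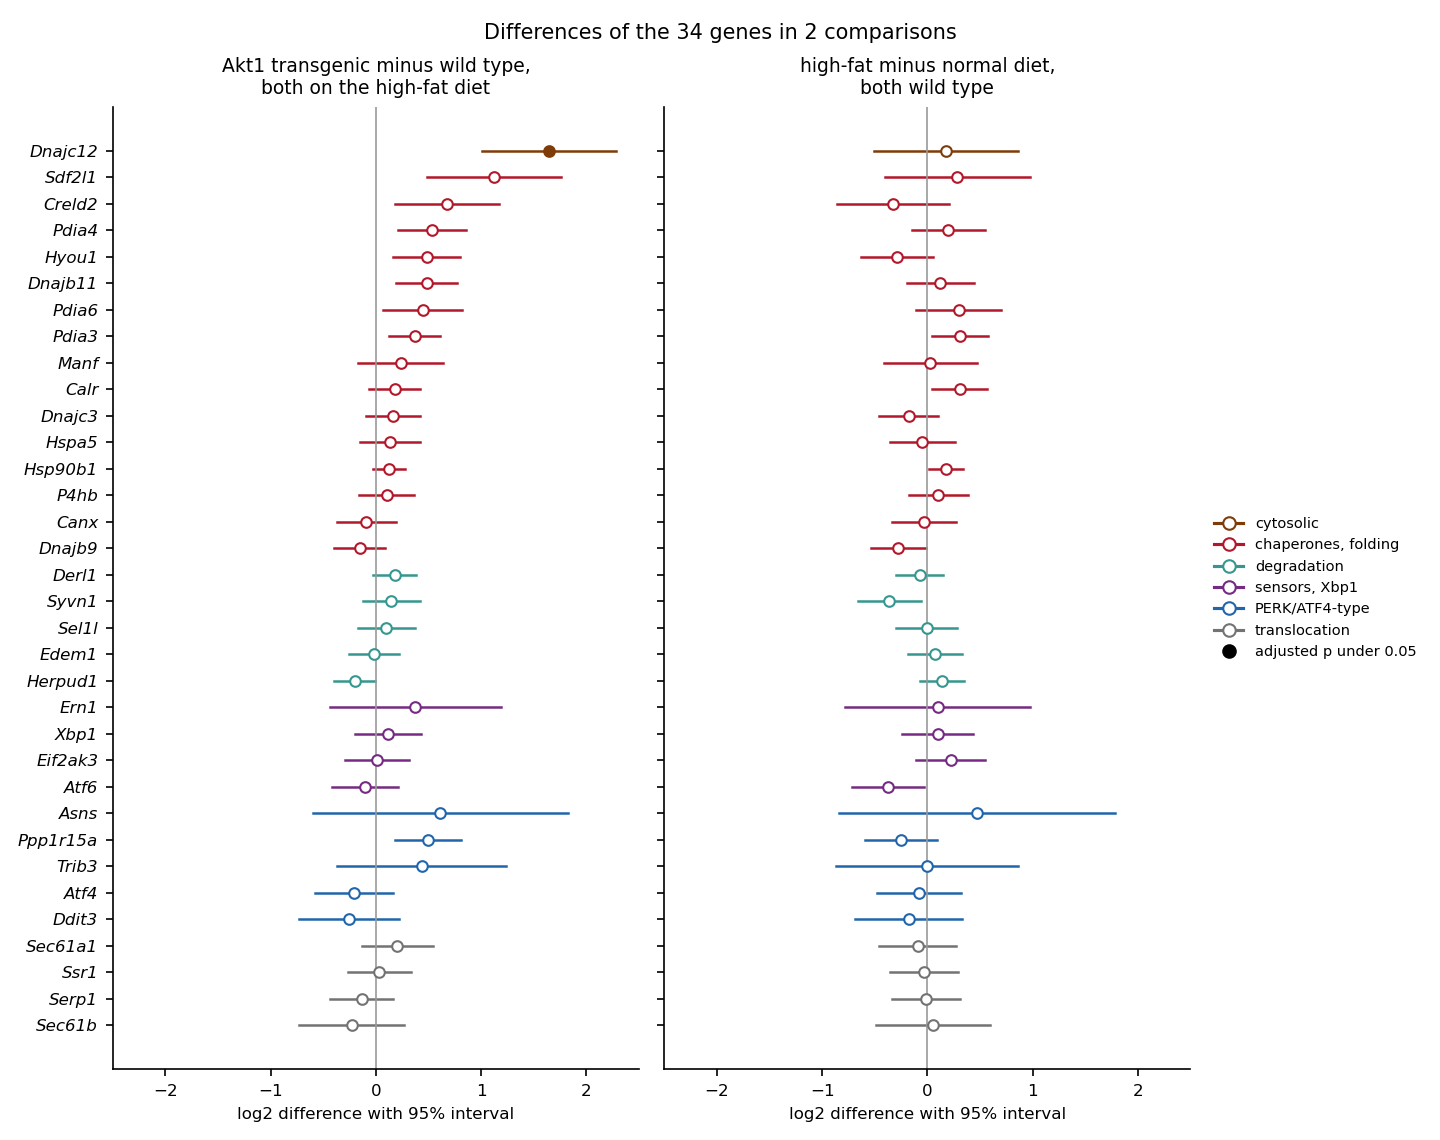
Log2 difference of each of the 34 genes with its 95% interval, for Akt1 transgenic minus wild-type livers on the high-fat diet (left) and for high-fat minus normal diet in wild-type livers (right). Genes are grouped by role and filled points have a limma adjusted p under 0.05; Dnajc12 in the left panel is the only one, and 13 of 15 chaperones there lie right of 0.

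The PERK/ATF4-type genes did not share a direction. Of 5, 3 were above 0 and 2 below, with a median of 0.44 (0.11 without Asns), and 0 were called. Ppp1r15a (GADD34), which brings a phosphatase to restore translation, had 229, 222, 234 and 250.5 in transgenic livers, against 183, 157, 136 and 194 in wild-type high-fat livers. It was higher on all 4 transgenic arrays, with a log2 difference of 0.49 ± 0.14 (limma adjusted p = 0.169). Atf4, in contrast, lay between 1350.5 and 1542 in transgenic livers, against 1383 to 1811 in wild-type high-fat livers, a difference of -0.21 with a 95% interval of -0.58 to 0.16. Ddit3, the pro-apoptotic factor CHOP, lay between 141 and 229 in transgenic livers, against 152 to 253 in wild-type high-fat livers, a difference of -0.26 with an interval of -0.73 to 0.22.

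Trib3, a pseudokinase that binds and restrains Akt kinases, lay between 68.1 and 266 in transgenic livers, against 96.4 to 169 in wild-type high-fat livers. The transgenic group spanned the whole wild-type range, and the difference was 0.44 ± 0.37. Asns, which makes asparagine, had 48.5, 292, 98.1 and 38.7 in transgenic livers, against 42.1, 98.2, 51.5 and 46.3 in wild-type high-fat livers. Array 2 was the highest in both groups, and transgenic array 2 was far above the rest. The log2 difference was 0.61 ± 0.56. Without transgenic array 2 the gene was under the dim limit and was not tested. Its second probe set, under the dim limit, was also brightest on transgenic array 2, at 201, with 0.60 to 21.4 on the other 10 arrays.

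**Figure D4:**
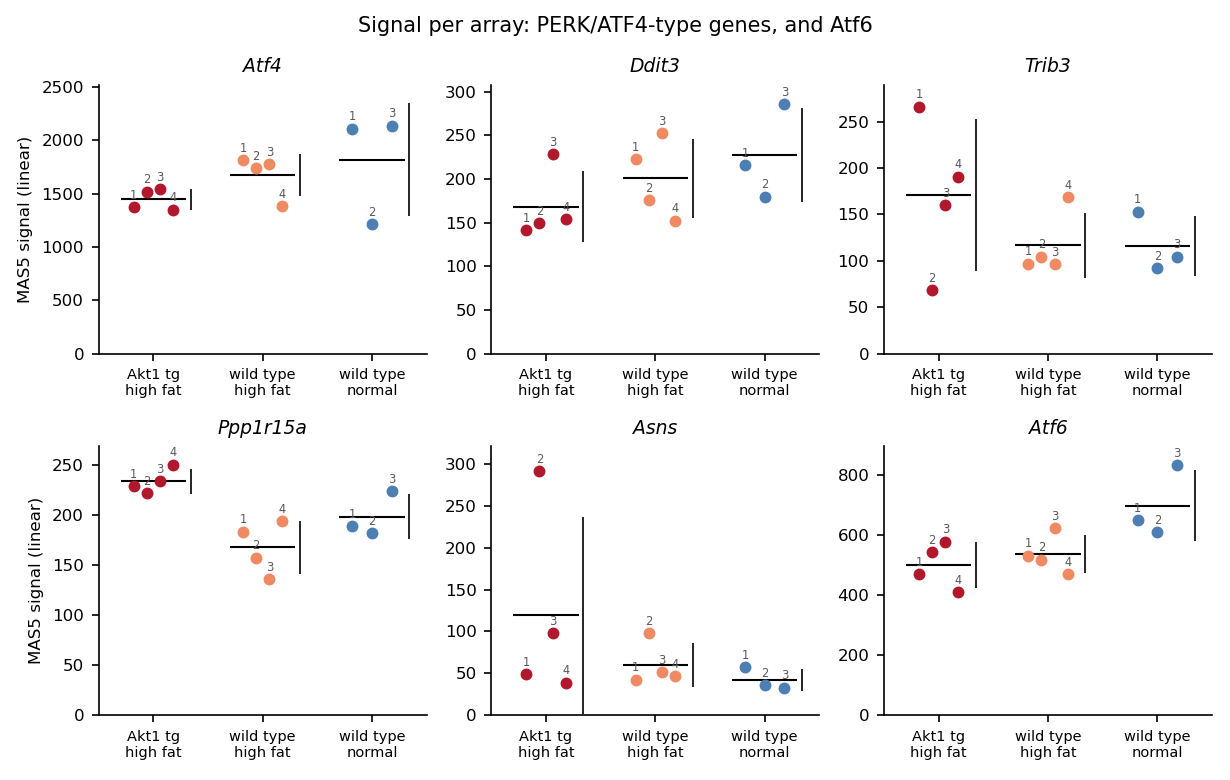
MAS5 signal (linear axes starting at 0) of the 5 PERK/ATF4-type genes and of the sensor Atf6 on each array, numbered by replicate, with the mean (horizontal bar) and 1 SD either side (vertical line, cut at 0). Only Ppp1r15a has all 4 transgenic points above the 4 wild-type high-fat points, and Asns has 1 transgenic point at 292.

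The chaperones and the PERK/ATF4-type genes were then set side by side on each array, by the median of each role relative to the mean of the 11 arrays. The chaperone median was 0.28, 0.17, 0.11 and 0.23 in transgenic livers, against -0.011, 0.018, -0.013 and -0.19 in wild-type high-fat livers and 0.018, -0.43 and -0.079 in normal-diet livers (log2). Every transgenic array was above every other array. The PERK/ATF4 median was -0.22, -0.082, 0.26 and -0.25 in transgenic livers, against -0.10, -0.12, -0.22 and -0.22 in wild-type high-fat livers and 0.18, -0.41 and 0.18 in normal-diet livers. These overlapped throughout. The chaperone median exceeded the PERK/ATF4 median by 0.50, 0.25 and 0.48 on transgenic arrays 1, 2 and 4 and was below it by 0.14 on array 3. It exceeded it by 0.027 to 0.20 on the 4 wild-type high-fat arrays and was below it on all 3 normal-diet arrays. The contrast depends on the summary. As a median of gene differences between the genotypes, the PERK/ATF4-type genes stood at 0.44, above the chaperones at 0.23. By array medians, the PERK/ATF4-type genes averaged -0.074 in transgenic and -0.16 in wild-type high-fat livers. No p is given for these medians, since their members were named with results of these arrays known.

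**Figure D5:**
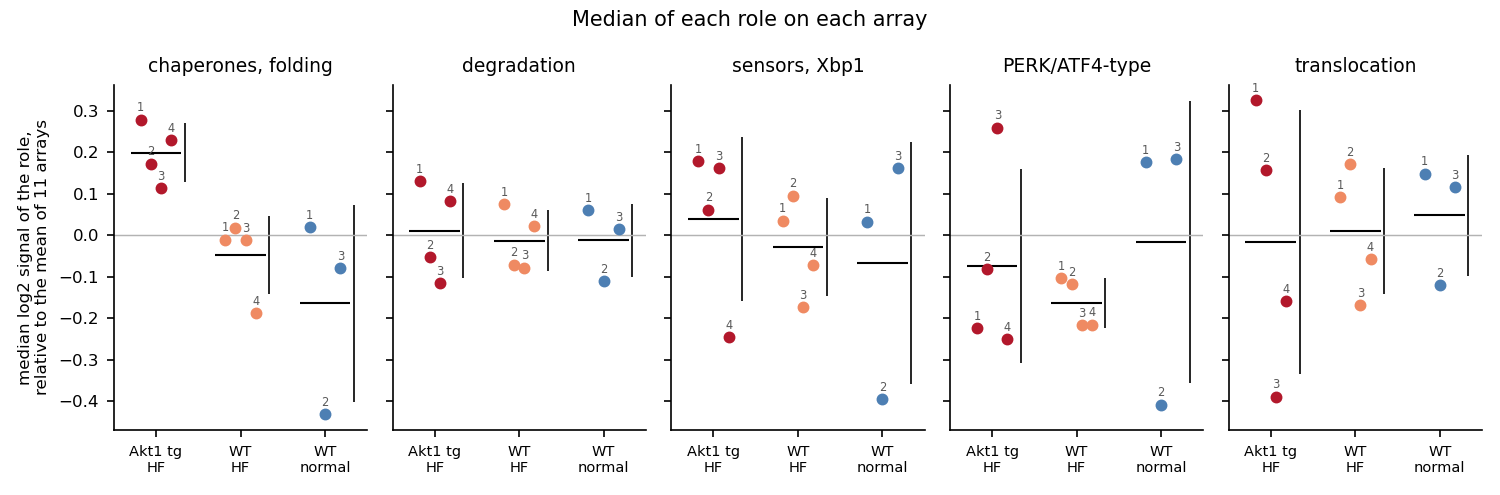
Median log2 signal of the 5 roles with several genes on each array, relative to the mean of the 11 arrays, numbered by replicate; horizontal bars are group means and vertical lines 1 SD either side. Of these 5 panels only that of the chaperones has all 4 transgenic points (0.11 to 0.28) above all the others, and normal-diet array 2 is the lowest point in the chaperone, sensor and PERK/ATF4 panels.

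ER-associated degradation genes, which mark misfolded proteins and pull them out to the proteasome, showed small differences between the genotypes. Of 5, 3 were above 0, with a median of 0.10, and 0 were called. Herpud1, a stress-inducible part of the degradation complex, had 11949, 9513, 9831.5 and 11209 in transgenic livers, against 12819.6, 11829.7, 12185 and 11914 in wild-type high-fat livers. It was lower on 3 of the 4 transgenic arrays than on any wild-type array, at -0.20 ± 0.088 (limma adjusted p = 0.338). Its second probe set differed by -0.12 ± 0.11, with overlap. Syvn1, the ubiquitin ligase HRD1, had 429, 392, 373 and 430.3 in transgenic livers, against 363, 375, 377 and 349 in wild-type high-fat livers. Transgenic array 3 lay inside the wild-type range, and the difference was 0.15 ± 0.13. Derl1, Sel1l and Edem1, partners of that ligase, differed by 0.18 ± 0.093, 0.10 ± 0.12 and -0.020 ± 0.11. The dimmer probe sets of Derl1 did not share its sign, at -0.00099 ± 0.11, -0.085 ± 0.099 and -0.19 ± 0.11.

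The sensors differed little. Xbp1 lay between 6692 and 9249 in transgenic livers, against 6424 to 8137.5 in wild-type high-fat livers, a difference of 0.11 with a 95% interval of -0.20 to 0.42. Eif2ak3 differed by 0.014 ± 0.14 and Atf6 by -0.11 ± 0.14. Ern1, near the dim end, had 108, 124, 93.7 and 55.6 in transgenic livers, against 57.8, 98.9, 57.8 and 74.4 in wild-type high-fat livers, with overlap and a difference of 0.38 ± 0.37. At a dimmer probe set of Xbp1 the signals were 404, 509, 289 and 262 in transgenic livers, against 209, 293.5, 201.5 and 234 in wild-type high-fat livers. That probe set differed by 0.61 ± 0.22 with overlap, and the other 3 of the gene by 0.11 to 0.31.

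At their brightest probe sets the translocation genes split evenly, 2 above 0 and 2 below, with a median of -0.053. Sec61a1, the pore of the channel, had 3042, 2802, 2071 and 2477 in transgenic livers, against 2099, 2721, 2019 and 2165 in wild-type high-fat livers, a difference of 0.20 ± 0.16. Sec61b, a small subunit of it, had 2965, 2873.5, 1326 and 2041 in transgenic livers, against 2577, 3345, 2067 and 2460.0 in wild-type high-fat livers, a difference of -0.23 ± 0.23. Ssr1, of the translocon-associated protein complex, and Serp1, which steadies the channel under stress, differed by 0.030 ± 0.14 and -0.14 ± 0.14. The dimmer probe sets of Sec61a1 were all above 0, at 0.19 to 0.64, without overlap only at the dimmest (0.64 ± 0.27). Those of Ssr1 differed by 0.29 ± 0.14 and -0.044 ± 0.28, and that of Serp1 by -0.021 ± 0.16. At the brightest probe sets of all 4 genes, transgenic array 1 was the highest of its group and array 3 the lowest. Transgenic arrays 3 and 4 had the highest maximum signals, but array 4 was not apart in spike signal (499) or Gapdh ratio (0.737). Without both arrays, a choice made after seeing the data, all 4 genes were above 0 with a median of 0.22. Of the chaperones, 14 of 15 were then above 0, with a median of 0.34.

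The other probe sets were compared with the brightest one of each gene. Of 33 others past the dim limit, 25 had the same sign in the transgenic comparison, and none of the 8 of opposite sign had an unadjusted p under 0.05. The median difference was 0.16 over the 7 chaperones with an ERSE and 0.42 over the 6 with a promoter lacking it. The widest gap, that of Sdf2l1, was in a gene without the element, and the next widest, that of Creld2, in a gene with it. Dnajb11, counted among those lacking ERSE, held ERSE-II. This is a description, with no test.

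Markers of other cell types were read on the same arrays, since plasma cells and acinar cells hold much ER. In bulk liver RNA, fewer cells of a type and less RNA per cell cannot be told apart. Plasma and B cell markers (2 of 7 past the dim limit) summed to 356 to 452 in transgenic livers, 263 to 476 in wild-type high-fat livers and 340 to 518 in normal-diet livers, so their ranges overlapped. Acinar markers (3 of 8 past the limit) summed to 798 to 2651 in transgenic livers, 1517 to 2772 in wild-type high-fat livers and 1687 to 2135 in normal-diet livers, most of it from Cela1. Kupffer cell markers (6 of 7 past the limit) summed to 3948 to 11007 in transgenic livers, 3326 to 7256 in wild-type high-fat livers and 2325 to 4405 in normal-diet livers. Neutrophil markers (1 of 8 past the limit, Csf3r) summed to 330 to 565 in transgenic livers, 253 to 363 in wild-type high-fat livers and 224 to 254 in normal-diet livers. Csf3r overlapped, at 70.4 to 132 in transgenic livers against 42.6 to 115 in wild-type high-fat livers. S100a8 was dim but higher on all transgenic arrays, at 51.4 to 75.1 against 13.0 to 50.5 in wild-type high-fat livers. S100a9, also dim, was apart as well, at 67.2 to 75.2 against 12.1 to 54.5. Ngp, Camp, Elane, Mpo and Ltf, all dim, overlapped between these groups. The part of these cells in the chaperone differences was not tested.

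The diets were compared next, high-fat against normal, in livers of wild-type mice. None of the 34 genes was called by limma (lowest adjusted p = 0.670), and 0% of all genes were, although 556 genes had an unadjusted limma p under 0.05. Of the 34, 3 were higher and 3 lower at that unadjusted p. At the brightest probe sets, every high-fat array lay above every normal-diet array in 2 genes, Hsp90b1 and Herpud1, and 0 genes lay wholly below. Among all genes, 4.58% were higher and 3.33% lower without overlap. Chaperones split 9 above and 6 below 0, with a median of 0.10, and the PERK/ATF4-type genes 1 above and 4 below, with a median of -0.078.

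Hsp90b1 had 7609, 7872, 7833 and 7839 in high-fat livers, against 7216, 6807 and 6661 in normal-diet livers, a difference of 0.18 ± 0.075 (limma adjusted p = 0.684). Herpud1 had 12819.6, 11829.7, 12185 and 11914 in high-fat livers, against 11322, 10431 and 11377 in normal-diet livers, a difference of 0.14 ± 0.095. Both gaps were small beside the signal, and at the second probe set of each gene the diets overlapped. That of Herpud1 read 7098 to 8579 in high-fat livers against 7350.5 to 8159 in normal-diet livers, at -0.011 ± 0.12. That of Hsp90b1 differed by 0.25 ± 0.14. Hsp90b1 had an unadjusted limma p under 0.05 and Herpud1 did not. The other genes under 0.05 were Pdia3 (0.31 ± 0.12) and Calr (0.31 ± 0.12), which were higher. Dimmer probe sets of Calr were higher too, at 0.67 ± 0.18 without overlap and at 0.30 ± 0.13 with overlap. Syvn1 (-0.36 ± 0.14), Atf6 (-0.38 ± 0.16) and Dnajb9 (-0.28 ± 0.12) were also under 0.05 and were lower. Syvn1 had 363, 375, 377 and 349 in high-fat livers, against 544.5, 374 and 509 in normal-diet livers. Atf6 had 531, 518, 622 and 469.9 in high-fat livers, against 649.5, 610.2 and 832 in normal-diet livers. In both, the highest high-fat array lay just above the lowest normal-diet array, which was array 2.

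The members with the widest diet differences in the other roles overlapped between the diets. Creld2 had 538, 386, 650.2 and 492 in high-fat livers, against 721, 410.2 and 870.1 in normal-diet livers, a difference of -0.33 ± 0.24. Asns had 42.1, 98.2, 51.5 and 46.3 in high-fat livers, against 56.9, 35.5 and 32.8 in normal-diet livers, a difference of 0.47 ± 0.60. Sec61a1 had 2099, 2721, 2019 and 2165 in high-fat livers, against 2718, 1875 and 2655 in normal-diet livers, a difference of -0.092 ± 0.17. The normal-diet values of these 3 genes spread as widely as the gap between the diets.

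That array set much of the diet comparison. Normal-diet array 2 was the lowest of its group in 29 of the 34 genes, while it was the lowest in 33.8% of all genes tested. The share was 13 of 15 chaperones, 4 of 4 sensors, 4 of 5 PERK/ATF4-type genes, 4 of 4 translocation genes, 3 of 5 degradation genes and Dnajc12. BiP itself had 9418, 6696 and 10825 on the 3 normal-diet arrays. The same array had the lowest hepatocyte sum, 100254 against 117709 and 119313, and the lowest Kupffer cell sum, 2325 against 3117 and 4405, of the 3. Whether these go with the low chaperone signals was not tested. Without array 2, the chaperones split 6 above and 9 below 0 in the diet comparison, with a median of -0.0088, and the PERK/ATF4-type median was -0.31.

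Transgenic mice on the high-fat diet were last set against wild-type mice on the normal diet, which differ in genotype and diet together and share arrays with both comparisons above. Here 4 of the 34 genes rose by limma's test and 0 fell, where 2.08% of all genes were called. They were Dnajc12, Pdia3, Pdia4 and Sdf2l1. Among the 15 chaperones, 12 were above 0, with a median of 0.30, 7 were higher without overlap and 1 lower (Dnajb9), where 8.46% of all genes were higher and 7.10% lower without overlap. Dnajc12 differed by 1.83 ± 0.31 (limma adjusted p = 0.0162), a 3.54-fold higher level. Pdia3 had 8068, 7472, 7339 and 8040.1 in transgenic livers, against 5613, 3967 and 5035 in normal-diet livers, a difference of 0.68 ± 0.12 (limma adjusted p = 0.0166).

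Pdia4 had 1709, 1314, 1831 and 1899 in transgenic livers, against 930.9, 945 and 1165 in normal-diet livers, a difference of 0.73 ± 0.16 (limma adjusted p = 0.0434). Sdf2l1 had 596, 491, 427 and 527 in transgenic livers, against 267, 127 and 205 in normal-diet livers, a difference of 1.41 ± 0.32 (limma adjusted p = 0.0456). In all 4 called genes the groups did not overlap. Without normal-diet array 2 none of the 4 was called, with limma adjusted p of 0.0580 for Dnajc12, 0.0564 for Pdia3, 0.136 for Pdia4 and 0.152 for Sdf2l1. Their log2 differences were then 1.72, 0.54, 0.68 and 1.12, the chaperone median was 0.11, and 10 of the 15 chaperones were above 0. Without transgenic array 4, 0 of the 4 were called either, and the fit with either array left out has fewer samples.

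Just outside the threshold were Dnajb11 (0.61 ± 0.14, limma adjusted p = 0.0553), Hsp90b1 (0.30 ± 0.075, 0.0633), Pdia6 (0.74 ± 0.19, 0.0636) and Calr (0.48 ± 0.12, 0.0636), all higher without overlap. Fitted over all probe sets with 1 symbol, 5 probe sets of the 34 genes were called, those of Pdia4, Dnajc12 and Pdia3 and dimmer ones of Hsp90b1 (0.71 ± 0.14, limma adjusted p = 0.0318) and Calr (0.65 ± 0.13, limma adjusted p = 0.0393). Sdf2l1 was not called in that fit (limma adjusted p = 0.0515). Atf6 was lower without overlap, at 468, 543, 578 and 409 in transgenic livers, against 649.5, 610.2 and 832 in normal-diet livers, a difference of -0.48 ± 0.16 (limma adjusted p = 0.135). Dnajb9 differed by -0.43 ± 0.12 (limma adjusted p = 0.0911). Of the PERK/ATF4-type genes 0 of 5 were called, and none was free of overlap at its brightest probe set. A dimmer probe set of Atf4 read 293 to 454 in transgenic livers, wholly below the 465 to 721 of normal-diet livers. It differed by -0.55 ± 0.18 (limma adjusted p = 0.202 over all probe sets with 1 symbol). The dimmer probe set of Trib3 overlapped, at 0.25 ± 0.31. Probe sets disagreed in Canx and Derl1, each with 1 dimmer probe set of opposite sign at an unadjusted p under 0.05, at 0.49 ± 0.15 and -0.33 ± 0.12.

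Further genes of the same pathways, not among the 34, were read in 5 lists. Of 27 other folding genes measured, 19 were above 0 in transgenic against wild-type high-fat livers, with a median of 0.15 and 0 called. Qsox1, an oxidase that makes disulfide bonds, had 5777, 4743, 4647 and 5455 in transgenic livers, against 4225, 2635, 2531 and 3406 in wild-type high-fat livers and 2654, 2628 and 2829 in normal-diet livers. It was higher on all transgenic arrays, at 0.71 ± 0.15 against wild-type high-fat livers (limma adjusted p = 0.0711). Fkbp11, a prolyl isomerase of the secretory pathway, had 368, 592, 478 and 435 in transgenic livers, against 160.5, 317, 152 and 146 in wild-type high-fat livers. It too was apart, at 1.33 ± 0.33 (limma adjusted p = 0.112). In this comparison 2 of the 27 were higher without overlap and 0 lower, where 4.32% of all genes were higher and 4.09% lower. Pdia5, a further disulfide isomerase, had 3266, 3709, 2371 and 3689 in transgenic livers, against 1547, 1394 and 1690 in normal-diet livers. Against the normal diet, Qsox1 (0.93 ± 0.16, limma adjusted p = 0.0162) and Pdia5 (1.06 ± 0.20, limma adjusted p = 0.0193) rose in transgenic livers, 2 of 27, where 2.08% of all genes were called, and the list median was 0.060. Each was called in 8 of the 11 fits that left out 1 array and in 10 of 11 other alternatives. Neither was called without normal-diet array 1, without normal-diet array 2 or without transgenic array 4. Without normal-diet array 2 the limma adjusted p was 0.0568 for Qsox1 and 0.0792 for Pdia5, and 50 genes were called in all. Between the diets the list split 14 above and 13 below 0, with Ero1b, an oxidase of disulfide isomerases, at -0.43 ± 0.19 and Ppib, the cyclophilin of the ER, at 0.26 ± 0.12.

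Of 16 other degradation genes, 6 were above 0 in the transgenic comparison on the high-fat diet, with a median of -0.053. Edem3, a mannosidase that marks glycoproteins for degradation, differed by -0.22 ± 0.096 and Herpud2, a relative of Herpud1, by -0.21 ± 0.13. Derl2 and Derl3, relatives of Derl1, differed by -0.28 ± 0.12 and 0.75 ± 0.42 between the diets, and by -0.34 ± 0.12 and 1.31 ± 0.42 in transgenic against normal-diet livers. Derl3 was dim, at 245 ± 107 in transgenic livers (n = 4), against 162 ± 56.2 in wild-type high-fat livers (n = 4) and 104 ± 60.4 in normal-diet livers (n = 3, all SD).

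Of 24 other translocation and glycosylation genes, 16 were above 0 on the high-fat diet, with a median of 0.030. Srp14, of the signal recognition particle, differed by -0.34 ± 0.13 there and by -0.41 ± 0.14 against normal-diet livers. Ssr4, a partner of Ssr1, differed by 0.24 ± 0.12 between the genotypes, and Ddost, of the oligosaccharyl transferase, by 0.39 ± 0.16 against normal-diet livers. Between the diets, Srprb, of the receptor of that particle, differed by -0.37 ± 0.22 and Srp68, of the particle itself, by -0.16 ± 0.10. These were the genes of lowest p in the list, and 0 were called.

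Of 26 other Atf4 targets, 15 were above 0 on the high-fat diet, with a median of 0.097. Gars, a glycyl-tRNA synthetase, averaged 799 ± 49.9 in transgenic livers and 651 ± 39.8 in wild-type high-fat livers (SD, n = 4 each), a difference of 0.30 ± 0.094 (limma adjusted p = 0.201). Gpt2, the mitochondrial alanine aminotransferase, averaged 5224 ± 418 in transgenic livers and 7724 ± 621 in wild-type high-fat livers (SD, n = 4 each), a difference of -0.56 ± 0.22 (limma adjusted p = 0.284). The tRNA synthetases did not share a sign: Tars differed by -0.45 ± 0.21 between the diets, and Iars by -0.31 ± 0.12 and Nars by 0.30 ± 0.11 in transgenic against normal-diet livers. Shmt2, a mitochondrial enzyme of serine use, differed by 0.43 ± 0.15 between the diets. None of the genes in the degradation, translocation and Atf4 target lists was called by limma in any of the 3 comparisons.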

How the data were processed

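Liver RNA was labelled from a poly-dT primer and hybridised to 1 array per mouse. The deposited intensity values are MAS5 signals; the name of the method comes from the submitters' processing notes, without a version. The 2% trimmed mean was 500.251 to 500.285 on every array, so no scaling was added. Detection calls were not used here. The 1386 values under 1 were set to 1 before log2. Of 22690 probe sets, 64 controls, 691 with several symbols and 1555 with none were left out. A dim limit then removed the lowest 40% (mean signal under 53.0), and the brightest probe set stood for each of 7924 genes.

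A single limma 3.58.1 fit (R 4.3.3, lmFit and eBayes with trend) took all 11 arrays with a mean per group. Tests were two-sided and p-values were Benjamini-Hochberg adjusted over all genes, with calls under 0.05. Values after ± are moderated standard errors unless marked SD. The scripts were tested on simulated data. Groups came from the sample titles. Shared deviations of same-numbered arrays were computed but cannot decide whether the arrays were paired, and the main fit used no pairing. The 34 genes, their roles, the further lists and the motifs were chosen with earlier results of these data known. Values on each array are given for members called in any comparison, those without overlap between genotypes on the high-fat diet, and the largest difference per role for genotype and for diet; the further lists are given by called genes or the 2 of lowest p. Alternatives were quantile normalization, log2(signal + 32), no dim limit or one at 60%, use of all probe sets, untrended eBayes, robust eBayes, array weights, a fit on only the groups compared, a replicate block, and each array left out in turn. Leaving out transgenic arrays 3 and 4 together was added after seeing the data. Precision is limited by the number of arrays, each a separate mouse.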

Additional observations from a re-analysis of the deposited data

Results flagged for a closer look

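In the groups of 4 arrays, a single array can stand far from the other 3. Of 68 such groups of the 34 genes (2 per gene, on the log2 scale), 6 had an array whose gap to its neighbour passed Dixon's limit, where chance flags about 1 in 20. Hyou1 had a signal of 1321.2 on transgenic array 1, with 907.7 to 957.3 on the other 3. The other 5 were in wild-type high-fat livers. Array 4 held 3 of them: Canx at 4383.8 (the others 5322.9 to 5364.1), Atf4 at 1382.7 (1739.5 to 1810.8) and Trib3 at 168.7 (96.4 to 104.2). On array 1, Hsp90b1 was at 7608.8 (7833.4 to 7872.1), and on array 3, Dnajc3 was at 2653.3 (2112.3 to 2157.4). Without transgenic array 1 the log2 difference of Hyou1 between the genotypes was the lowest among the fits that left out 1 array, 0.36.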

How the results depend on the processing

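In transgenic against wild-type high-fat livers, 29 genes were called. The count was 12 with no filter on dim probe sets, 48 over all probe sets, 0 with eBayes without trend, 58 with array weights, 8 with only the groups compared and 4 without transgenic arrays 3 and 4. It ranged from 0 to 64 when each array was left out. Of the 34 genes, 0 were called with no filter, without trend, with robust eBayes, with only the groups compared and without both of those arrays, and 0 to 1 with 1 array left out. In high-fat against normal-diet livers, 0 genes were called, 1 with array weights, 2 without both of those arrays, and 0 to 2 with 1 array left out. In transgenic against normal-diet livers, 165 genes were called, 81 without trend, 104 with only the groups compared and 23 without both of those arrays, and 36 to 199 with 1 array left out. Of the 34 genes 4 were called, 2 without trend, 7 with array weights, 0 without both of those arrays, and 0 to 4 with 1 array left out.

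With 1 array left out, the chaperone median ranged from 0.19 to 0.29 for genotype, from -0.0088 to 0.14 for diet and from 0.11 to 0.51 for transgenic against normal diet. The PERK/ATF4-type median ranged from 0.15 to 0.52, from -0.31 to 0.052 and from -0.021 to 0.33. With the lowest 60% of probe sets left out it was -0.21 for genotype and -0.29 for transgenic against normal diet, since 3 of the 5 genes remained, without Asns and Trib3. Asns also fell under the limit when transgenic array 2 was left out.

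The titles give same-numbered arrays nothing in common but the number. Their deviations correlated at 0.084 to 0.29 between the high-fat groups, all above 0. The correlations were -0.072 to 0.029 for diet and -0.059 to 0.11 for transgenic against normal diet. Arrays of unlike number were not compared, so these values cannot decide whether the arrays were paired. With the replicate number as a block, 31 genes were called for genotype, 2 for diet and 139 for transgenic against normal diet, of the 34 genes 1, 0 and 5, and the chaperone median was 0.23, 0.11 and 0.31.

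Signs turned in genes that were not called. With 1 array left out, Sec61b ranged from -0.38 to 0.010 for genotype, from -0.072 to 0.16 for diet and from -0.32 to 0.064 for transgenic against normal diet, with the highest genotype and normal-diet values when transgenic array 3 was left out. Without transgenic arrays 3 and 4 it was 0.18 for genotype and 0.24 against normal diet. For diet, Sdf2l1 ranged from -0.0088 to 0.58, Dnajb11 from -0.0060 to 0.27, Ern1 from -0.37 to 0.44 and Sec61a1 from -0.27 to 0.0027. Sdf2l1, Dnajb11, Ern1 and Sec61a1 each had its lowest value without normal-diet array 2, where Sec61b was -0.013. Without wild-type high-fat array 2, Ern1 was -0.065. Against normal diet, Sec61a1 ranged from -0.063 to 0.21. Of the 4 genes called in transgenic against normal-diet livers, Dnajc12 was called in 8, Pdia3 in 9, Pdia4 in 4 and Sdf2l1 in 2 of the 11 fits that left out 1 array. Where no construction is named, the cause was not tested.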

Other observations

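A further list held 16 measured genes of stress sensing outside the 34, and none was called in any comparison. Nfya, a subunit of the factor NF-Y that binds CCAAT in ERSE, averaged 131 ± 24.3 in transgenic livers and 197 ± 30.5 in wild-type high-fat livers (SD, n = 4 each), a log2 difference of -0.59 ± 0.17 (limma adjusted p = 0.169). Tmbim6, an ER membrane protein that limits cell death, averaged 8826 ± 1029 in transgenic livers and 10362 ± 791 in wild-type high-fat livers, at -0.24 ± 0.098 (limma adjusted p = 0.314). Creb3l3, a liver transcription factor released from the ER like Atf6, averaged 6275 ± 968 in transgenic livers and 4887 ± 739 in normal-diet livers, at 0.36 ± 0.13 (limma adjusted p = 0.176). Nfyb, another subunit of NF-Y, differed by -0.46 ± 0.16 in transgenic against normal-diet livers (limma adjusted p = 0.160). Between the diets, Creb3l2, a further factor released from the ER, differed by -0.45 ± 0.18, and Atf6b, a relative of Atf6, by 0.36 ± 0.18.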
